A study of Mus musculus with 4 samples.

Results

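The enamel matrix genes described here are Amelx, Ambn, Enam, Mmp20, Klk4, Odam and Amtn, chosen by symbol, and all 7 were found among the 32285 genes of the count tables. Their UMIs (unique molecular identifiers, each standing for 1 captured RNA molecule) were counted in single cells of the developing first molar of wild-type C57BL/6J mice. Each of the 4 libraries held 6 pooled tooth organs from 1 stage and 1 jaw: the maxillary and the mandibular molar at embryonic day E15.5 (written E15 in the sample labels), and the same pair at postnatal day P1 (animals taken at P0 or P1 by the protocol). All animals were untreated, and all tissue was dissociated with TrypLE before droplet capture and 3′ tag sequencing. Of 56940 deposited barcodes, 44144 met the rule for members' cells, which is at least 1000 UMIs and, in the P1 mandibular library, no barcode that is also in the P1 maxillary library. After removal of barcodes rich in mitochondrial UMIs and of the most doublet-like ones, 36372 cells remained. They numbered 8395 in the E15.5 maxillary library, 6059 in the E15.5 mandibular, 13760 in the P1 maxillary and 8158 in the P1 mandibular library. Total UMIs per library were 109723360, 86659227, 128812956 and 139873101 in that order, and the kept cells had medians of 9887, 11595, 3950.5 and 11016 UMIs.

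Enamel is laid down by ameloblasts, epithelial cells that face the dentin-forming odontoblasts of the dental papilla. Secretory ameloblasts release amelogenin (Amelx), ameloblastin (Ambn) and enamelin (Enam) into the space between these cell layers, and the metalloproteinase enamelysin (Mmp20) trims these proteins while the matrix is being deposited. In the later maturation stage the serine protease kallikrein 4 (Klk4) degrades the matrix so that crystals can thicken, and amelotin (Amtn) and the odontogenic ameloblast-associated protein (Odam) are found at the interface of cell and enamel. The stellate reticulum and the stratum intermedium (SR/SI) are the inner epithelial layers that back the ameloblasts.

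Ambn, Enam, Odam and Amtn lie on the plus strand of chromosome 5 within 621 kb (GRCm38, which is mm10, with GENCODE gene models): Odam at chr5:87885029-87894174, Amtn at chr5:88376108-88385916, Ambn at chr5:88455991-88468531 and Enam at chr5:88487975-88506049, with 19.4 kb between the last pair. Amelx, at chrX:169176114-169187200 on the minus strand, lies wholly inside Arhgap6 (chrX:168795099-169304435, plus strand) and overlaps none of its exons. Mmp20 is at chr9:7628231-7674979 and Klk4 at chr7:43881160-43885804, both on the plus strand.

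The 100 bases before each member's RefSeq start are shown because members of this group were high in the same cells while others were not, and because 5 of the 7 share a run of 7 letters close to it. For Amelx and Odam that start differs from the GENCODE gene end given above. They are RefSeq promoter sequences on GRCm38.p6, written 5′ to 3′ on the gene's own strand, with the letters TGATTGG in capitals. The intervals are chrX:169187210-169187309 (minus) for Amelx, and, on the plus strand, chr5:88455891-88455990 for Ambn, chr5:88487875-88487974 for Enam, chr9:7628131-7628230 for Mmp20, chr7:43881060-43881159 for Klk4, chr5:87884910-87885009 for Odam and chr5:88376008-88376107 for Amtn.
Amelx: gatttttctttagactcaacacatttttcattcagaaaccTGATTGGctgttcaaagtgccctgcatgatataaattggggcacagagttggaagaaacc
Ambn: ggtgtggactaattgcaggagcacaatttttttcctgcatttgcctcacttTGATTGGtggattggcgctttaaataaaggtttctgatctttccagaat
Enam: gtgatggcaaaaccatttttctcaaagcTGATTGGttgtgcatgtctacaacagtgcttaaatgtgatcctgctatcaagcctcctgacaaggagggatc
Mmp20: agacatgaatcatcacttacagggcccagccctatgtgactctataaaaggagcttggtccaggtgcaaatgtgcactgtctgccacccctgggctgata
Klk4: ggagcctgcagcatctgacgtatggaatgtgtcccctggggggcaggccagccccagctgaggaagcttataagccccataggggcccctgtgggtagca
Odam: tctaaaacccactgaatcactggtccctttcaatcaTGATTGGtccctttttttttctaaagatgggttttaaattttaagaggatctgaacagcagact
Amtn: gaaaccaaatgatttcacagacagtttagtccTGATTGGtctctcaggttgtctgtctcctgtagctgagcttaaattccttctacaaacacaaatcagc

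The run began 60 bases before the RefSeq start in Amelx, 49 in Ambn, 72 in Enam, 64 in Odam and 68 in Amtn, and in all 5 it lay on the gene's strand. It was chosen after these sequences had been read, and it was searched for on both strands, as TGATTGG or its reverse CCAATCA. Of 32851 RefSeq promoters, 1506 (4.58%) held it in the same 100 bases and 2375 (7.23%) in the 250 bases before the start. Its core ATTGG, or CCAAT on the other strand, occurred within the 100 bases in 18.9% of promoters. The letters were absent from this window in Mmp20 and Klk4. Sharing them did not go with sharing a cell type: Amelx, Ambn and Enam were highest in ameloblast-like cells, Odam in SR/SI-like cells, and Amtn was near 0 everywhere, as described below.

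Barcodes recurred between the P1 libraries. In all 7131 were found in both, against 28 to 70 for each of the 5 other pairs of libraries. Their median depth was 12088 UMIs on the maxillary side and 2870 on the mandibular side. The ratio was nearly constant, with a median log2 value of 2.07 and 5th and 95th percentiles of 2.003 and 2.18. Shared barcodes made up 38.1% of the P1 maxillary library and 5825 of its 13760 kept cells, and those cells had a median of 12233 UMIs, against 2530 in the others. By the rule they were dropped from the mandibular library and kept in the maxillary one, so the main P1 maxillary levels below are also given for the 7935 kept cells whose barcode is in that library alone. The gene lists, the ranking of similar genes and the free-RNA shares of the maxillary library are for both kinds of barcode together. Which jaw the shared barcodes came from cannot be told apart here, and therefore no difference between the jaws at P1 is read as one of the jaws.

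Cells were clustered in each library without the 7 members, and clusters were named from marker genes that leave them out, so a level of a member in a class is not fixed by the way the class was made. A level is given as CPM, the UMIs of a gene per 1000000 UMIs of the class, with an exact 95% Poisson interval. These 3′ tag counts were not corrected for gene length, and capture may differ between genes. Whether reads in introns were counted is not given in the sources used here. Levels of different genes are therefore set side by side as counts only. With 1 library per stage and jaw there is no biological replicate, no test across libraries was made, and every interval covers counting error only. The name ameloblast-like was open to P1 clusters alone. Clusters with it numbered 863 cells in the maxillary library and 963 in the mandibular one. Of the genes that named them, Vwde stood at 965 and 601 CPM in the 2 libraries, against 59.6 and 52.9 in SR/SI-like cells. Sp6 stood at 471 and 407, but also at 337 and 320 in the Bglap-led cells described next, and Dlx3, at 105 and 99.1, was lower than in dental papilla-like cells (151 and 116). In each P1 library 1 mesenchyme-like cluster, of 155 and 319 cells, scored highest for the odontoblast markers but was led by the osteocalcin genes Bglap and Bglap2. Among its 10 leading genes were 3 odontoblast and 4 osteoblast markers in the maxillary library and 3 of each in the mandibular one, so these cells are called Bglap-led and given no cell type. They held Dspp, the dentin sialophosphoprotein gene, at 600.0 and 1169 CPM, no higher than ameloblast-like cells (679 and 1297). In dental papilla-like cells Dspp was at 1.77 and 4.75. The Bglap-led cells held the matrix gene Dmp1 at 691 and 553, against 0.755 and 2.98 in ameloblast-like cells. Of further odontoblast markers, Smpd3 stood in the Bglap-led cells at 2375 and 2176, Phex at 600.0 and 826 and Nes at 405 and 281. The bone genes Ifitm5 stood there at 1133 and 891, Ibsp at 156 and 373 and Spp1 at 531 and 258.

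**Figure D1:**
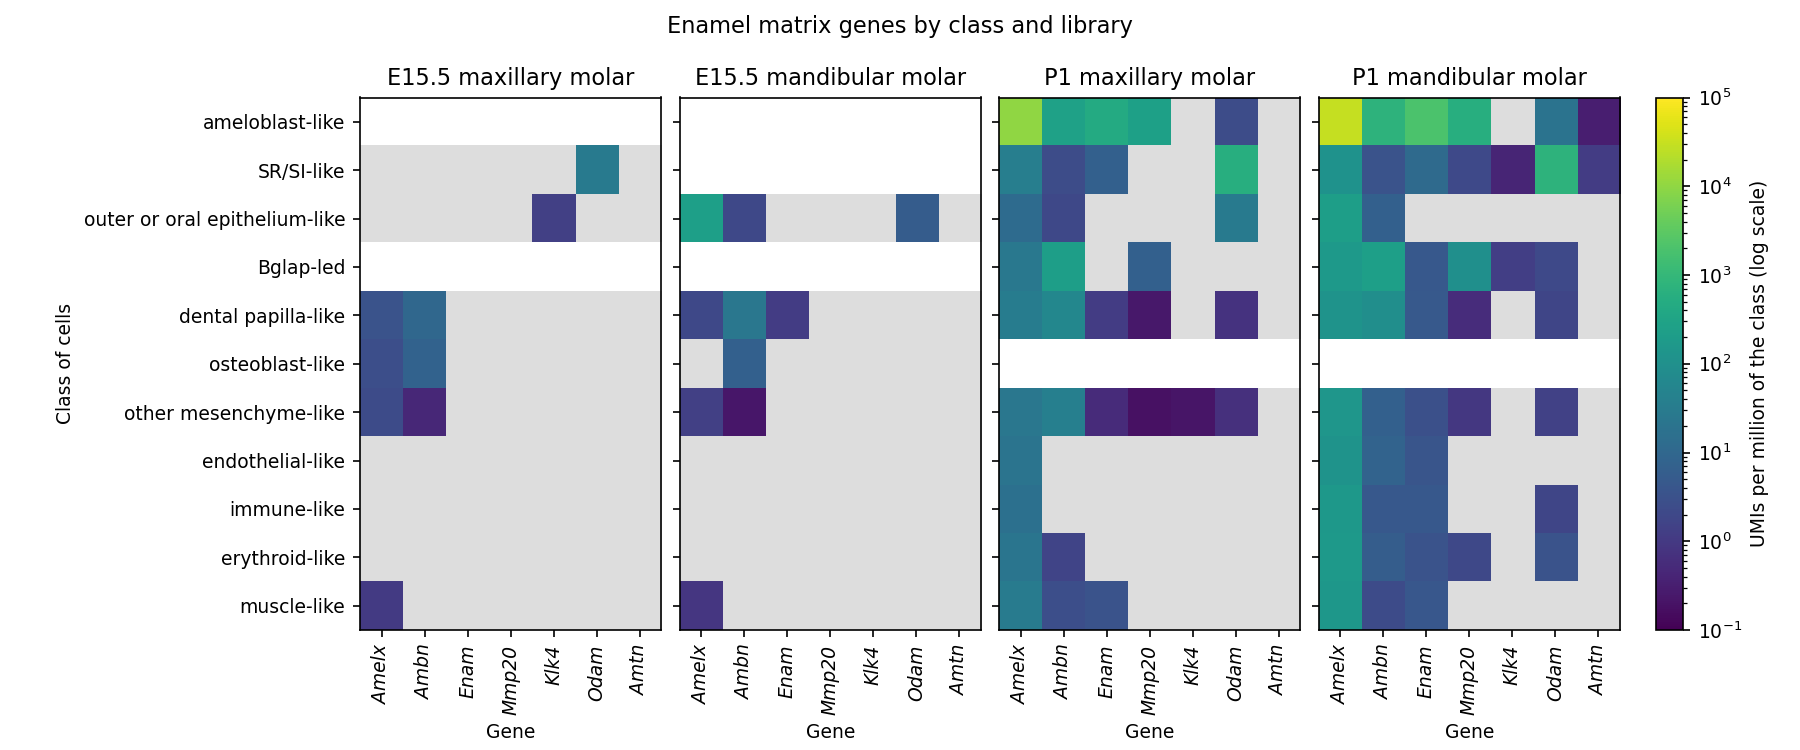
CPM of each of the 7 genes (columns) in 11 classes of cells (rows) in the 4 libraries, on a logarithmic colour scale. Grey marks 3 UMIs or fewer and white a class not found in that library. The ameloblast-like and Bglap-led names were not open to E15.5 clusters. At P1 each of the 4 left columns is highest in the ameloblast-like row. Ambn in the Bglap-led row (233 and 243) comes close to its maxillary ameloblast-like value (275). Odam is highest in the SR/SI-like row, and Amelx is above grey in every P1 class shown. The E15.5 mandibular Amelx value in outer or oral epithelium-like cells rests on 1 cell.

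Amelx had by far the most UMIs of the 7 at P1. In ameloblast-like cells it reached 9926 CPM (95% interval 9862 to 9990) in the P1 maxillary and 30278 (30183 to 30374) in the P1 mandibular library. These cells held 97.5% and 96.5% of all Amelx UMIs of the kept cells, which were 94436 and 399896. The other epithelium-like cells stood at 27.5 and 127 CPM, which makes Amelx 361-fold (log2 8.50, interval 8.32 to 8.68) and 239-fold (log2 7.90, interval 7.82 to 7.98) higher in ameloblast-like cells. A few cells carried most of it. The 38 most loaded maxillary cells and the 114 most loaded mandibular cells together held at least as many Amelx UMIs as all other cells of their library, and in the most loaded cell Amelx made up 15.9% and 27.3% of all UMIs.

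The ameloblast-like clusters differed widely in Amelx. The P1 mandibular cluster led by Calb1, the calcium-binding protein calbindin (459 cells), stood at 54831 CPM, and its median cell gave 4.68% of its UMIs to this 1 gene. The cluster led by Ralyl and Cyp26a1 (257 cells) stood at 10227 and the one led by Vwde (247 cells) at 586 CPM, or 457 without its most loaded cell. In the P1 maxillary library the Calb1-led cluster (510 cells) stood at 13260 CPM, with a median cell at 0.00879% and 133 cells above 1%. Its companion, led by the division genes Top2a and Cenpf (353 cells), stood at 132, or 85 without 1 cell. The median cell of that companion held no Amelx UMI, and Ambn, Enam and Mmp20 stood there at 11.9, 3.82 and 2.12 CPM. Its name thus rests on the marker genes and not on enamel transcripts.

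Ambn, Enam and Mmp20 followed Amelx in this class. Ambn measured 275 CPM (265 to 286) in P1 maxillary and 737 (722 to 752) in P1 mandibular ameloblast-like cells. Enam measured 477 (463 to 492) and 1975 (1951 to 2000) in the same libraries. The protease Mmp20 was at 253 (243 to 263) and 585 (572 to 599). Against the other epithelium-like cells the log2 ratios were 7.04 and 7.68 for Ambn, 6.59 and 7.52 for Enam, and 10.16 and 8.17 for Mmp20, where the maxillary Mmp20 ratio rests on 2 UMIs in the other cells (interval 8.31 to 13.21). Odam ran the other way, at log2 -7.29 and -5.11. Among all genes that reached 10 CPM in 1 of the classes compared, 2.83% of 9908 in the maxillary and 3.7% of 9853 in the mandibular library were at least 4-fold higher in ameloblast-like cells. Klk4 and Amtn did not reach 10 CPM. Ambn and Mmp20, and in the maxillary library Enam, reached it in the ameloblast-like class alone, so no count of members is read against these shares. In maxillary cells with their own barcode the log2 ratio was 6.39 for Amelx (5.48 to 7.48), or 5.11 (4.15 to 6.22) without 1 cell, at least 4.84 for Ambn and at least 2.59 for Mmp20, the last from 4 UMIs. Enam had 3 UMIs on each side, which gives no ratio. The Odam ratio changed sign among these cells, to 1.4834 (0.363 to 2.55), from 13 UMIs in ameloblast-like and 21 in the other epithelium-like cells. All 21 lay in the 45 SR/SI-like cells among the latter, 18 of them in 1 cell. Against SR/SI-like cells alone the log2 ratio was -2.02 (-3.14 to -0.951), and without that cell 0.778 (-1.09 to 3.23), so the cells with their own barcode give no settled direction for Odam.

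The maxillary values depended on the shared barcodes. Among maxillary ameloblast-like cells, 659 had a shared barcode and a median of 13126 UMIs, and 204 had a barcode of their own and a median of 1520.5 UMIs. Amelx stood at 10312 CPM in the former and at 509 (438 to 588, from 186 UMIs) in the latter. One cell held 110 of those 186 UMIs, and the level without it was 209 (165 to 261). Ambn was at 284 and 52.0, Enam at 497 and 8.21, and Mmp20 at 263 and 10.9, the last 2 from 3 and 4 UMIs in the cells with a barcode of their own. Of the Calb1-led cluster 97.5% of the cells were shared ones, against 45.9% of the cluster led by Top2a. In the cells with their own barcode, Amelx and Ambn (19 UMIs) were thus the secretory transcripts with more than 4 UMIs.

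Side by side, the mandibular ameloblast-like cells were higher than the maxillary ones by 3.05-fold for Amelx, 2.68-fold for Ambn, 4.14-fold for Enam and 2.32-fold for Mmp20. Odam was 7.72-fold higher, resting on 1 mandibular cell described below. At least 4-fold higher were 0.621% of 9185 genes. Since shared barcodes were kept on the maxillary side and dropped on the mandibular one, jaw and barcode handling cannot be told apart in these ratios.

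How the 4 genes vary together was read from the ameloblast-like cells themselves, split by their Amelx level at 300, 3000 and 30000 CPM. These limits were set after the data had been seen, the ranges are not cell types, and 25, 11 and 21 maxillary and 43, 16 and 55 mandibular cells lay close to the 3 limits. In the 316 mandibular cells at 30000 or more, Enam was at 5132, Ambn at 1715 and Mmp20 at 1314 CPM, and they were detected in 94.9%, 98.7% and 99.7% of those cells. In the 370 cells under 300, Amelx was at 99.2 CPM, a level bounded by that limit. Ambn was still at 123 CPM (113 to 133) in them, spread over 127 cells, against 40.1 for Enam and 7.77 for Mmp20. The 81 maxillary cells at 30000 or more held Enam at 3351, Ambn at 1390 and Mmp20 at 1218. The 603 maxillary cells under 300 held Ambn at 83.0 (75.9 to 90.5), or 72.2 without 1 cell, Enam at 24.0 and Mmp20 at 5.93. Cells with their own barcode numbered 172, 29, 2 and 1 in the 4 maxillary ranges from the lowest up, so the upper ranges were almost wholly shared ones.

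Between 300 and 3000 and between 3000 and 30000, Mmp20 went from 122 to 596 CPM in the maxillary library and from 116 to 555 in the mandibular one. Over the same step Enam went from 160 to 222 and from 43.0 to 574. Enam passed 3000 CPM in the highest range alone, in both libraries. Ambn measured 83.0 and 120 CPM in the lowest range and the next of the maxillary library, and 123 and 130 in those of the mandibular one. Calb1 and Dspp, a dentin gene that early ameloblasts also transcribe, were higher in each higher range, and Vwde was lower in each. In mandibular cells Vwde was at 1013, 911, 399 and 197 CPM over the 4 ranges. Top2a, a gene of dividing cells, was at 290 in the lowest range and at 4.78 in the highest.

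**Figure D2:**
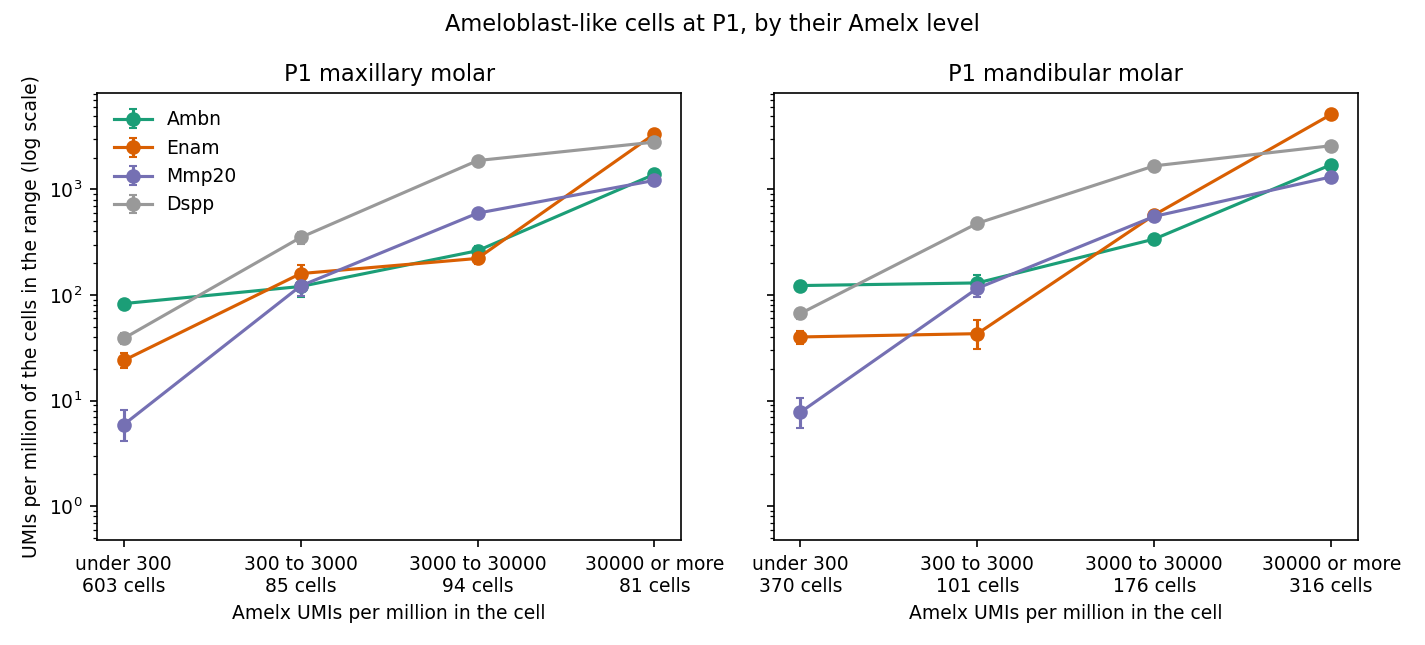
Levels of Ambn, Enam, Mmp20 and Dspp (CPM, logarithmic axis) in P1 ameloblast-like cells grouped by the cell's own Amelx level, with exact 95% Poisson intervals as bars. In both libraries Mmp20 is lowest of the 4 in the range under 300 (5.93 and 7.77), Ambn is highest there (83.0 and 123), and Enam is above 3000 in the top range.

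Detection in the same cell was compared after each cell had been thinned to 2000 UMIs. Of 927 mandibular ameloblast-like cells (36 shallower ones left out), 223 (24.1%) held all 4 of Amelx, Ambn, Enam and Mmp20, and 248 held none. In the maxillary library 54 of 701 cells (7.7%) held all 4 and 391 none, with 162 left out. Only 42 of these maxillary cells had their own barcode, and of them 0 held all 4 and 35 held none. Of cells with an Mmp20 UMI, 98.5% (mandibular) and 97.7% (maxillary) also had one of Amelx, and of cells with an Ambn UMI 87.0% and 69.8% did. Without thinning, 88.8% of mandibular and 46.5% of maxillary ameloblast-like cells had an Amelx UMI.

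That share needs its background, since RNA set free from broken cells can enter any droplet. Immune-like and erythroid-like cells, which are not known to make enamel proteins, held Amelx at 19.4 CPM (15.8 to 23.7) in the P1 maxillary and at 169 (158 to 181) in the P1 mandibular library. In the mandibular library 66.1% of them had an Amelx UMI at a median depth of 7058 UMIs, and 27.7% did after thinning, against 66.7% of ameloblast-like cells. In the maxillary library 5.45% had one at a median depth of 2074 UMIs, and 2.64% did after thinning, against 36.8%. Endothelial-like cells stood at 20.5 and 123 CPM and muscle-like cells at 32.1 and 152. In the mandibular library the named classes outside the epithelium lay between 119 and 178, apart from 65 glia-like cells at 810, where 1 cell held 485 of 586 UMIs and the level without it was 149. In the maxillary library they lay between 3.23 (chondrocyte-like) and 39.6 (pericyte-like), and the lowest classes, chondrocyte-like, neuron-like and glia-like cells, had mostly barcodes of their own. The level in immune-like and erythroid-like cells moved with the processing: it was 250.4 and 236 CPM with doublet-like barcodes kept, and 4883 in the mandibular library when cells were named one by one.

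Within the P1 maxillary library the background differed by barcode. Immune-like and erythroid-like cells with a shared barcode held 31.9 CPM (25.1 to 39.9, 256 cells) and those with their own barcode 8.26 (5.18 to 12.5, 1285 cells), a 3.86-fold difference (log2 1.95, interval 1.247 to 2.70). Other mesenchyme-like cells gave 34.4 and 5.68 and endothelial-like cells 26.7 and 3.56 CPM, the last from 3 UMIs. The shared barcodes therefore carried more Amelx in 3 classes that do not make enamel, and the cells with their own barcode were the shallower ones in all 3.

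**Figure D3:**
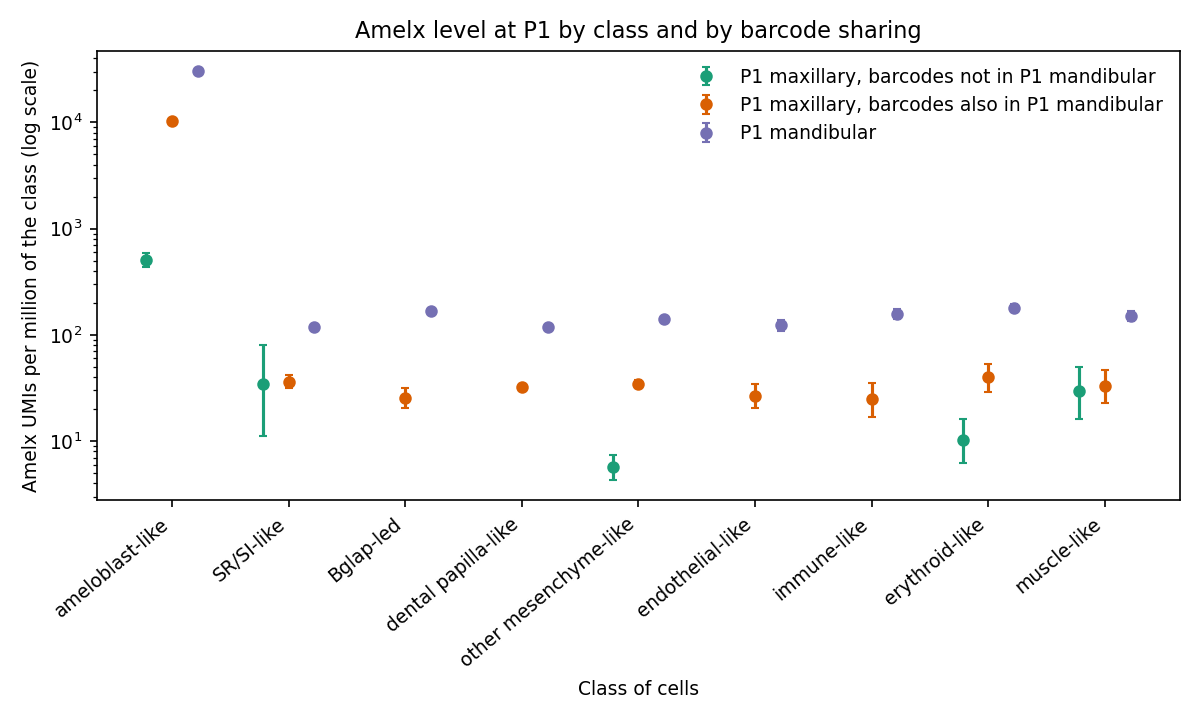
Amelx CPM (logarithmic axis) in 9 classes of P1 cells, for maxillary cells with their own barcode, maxillary cells with a barcode also in the mandibular library, and mandibular cells. Bars are exact 95% Poisson intervals and classes with 3 UMIs or fewer are not drawn; outside the ameloblast-like class the mandibular points lie between 118 and 178 and the shared maxillary points between 24.7 and 39.9.

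SR/SI-like cells held Amelx at 36.3 and 118 CPM in the 2 P1 libraries, 1.87-fold and 0.695-fold the level of the immune-like and erythroid-like cells. Among shared barcodes alone, which most maxillary SR/SI-like cells but a minority of those blood cells had, the maxillary fold was 1.14 (0.875 to 1.502). Enam stood at 6.84 (4.93 to 9.25) and 11.6 (9.53 to 14.0) in SR/SI-like cells, against 0.198 and 3.89 in immune-like and erythroid-like cells. Per 100 Amelx UMIs that is 18.8 and 9.87 Enam UMIs in SR/SI-like cells, compared with 4.81 and 6.52 in the ameloblast-like cells of the same libraries. The mandibular Enam UMIs of this class lay mainly in the cluster led by Krt17, at 20.2 CPM, and not in the one led by Mindy4, at 3.48. One mandibular cell held 31 of the 110 UMIs, and without it the level was 8.37 and the number per 100 Amelx UMIs 7.12 (5.59 to 8.95). In the 45 maxillary SR/SI-like cells with their own barcode Enam stood at 13.7 CPM (1.66 to 49.5). That level rests on at most 3 UMIs, the number in all other epithelium-like cells with their own barcode.

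Ambn was high outside the epithelium in both P1 libraries. In Bglap-led cells it stood at 233 CPM (217 to 249.05) in the P1 maxillary and at 243 (230 to 255) in the P1 mandibular library, against 1.19 and 5.25 in immune-like and erythroid-like cells. The log2 ratios were 7.61 (6.48 to 9.06) and 5.53 (4.98 to 6.14). Of the maxillary Bglap-led cells 90.3% had an Ambn UMI, and 38.1% after thinning. In the mandibular library the shares were 85.9% and 32.3%. The most loaded cell held 22 of 827 and 62 of 1500 UMIs, so the level was not that of a few cells.

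Amelx in the same Bglap-led cells was at the background, at 25.6 and 168 CPM, and Enam likewise, from 1 and 28 UMIs. One mandibular cell held 406 of the 1040 Amelx UMIs, and the level without it was 103. Per 100 Amelx UMIs the Bglap-led cells held 909 (731 to 1141) Ambn UMIs in the maxillary library and 144 (133 to 156) in the mandibular one, whereas ameloblast-like cells held 2.77 and 2.43. Without the cell with 406 Amelx UMIs the mandibular value was 235 (214 to 258) Ambn UMIs per 100 of Amelx.

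Dental papilla-like cells, from which odontoblasts arise, held Ambn at 60.3 CPM (57.7 to 63.0) in the P1 maxillary and at 94.6 (90.9 to 98.4) in the P1 mandibular library. Every papilla-like cluster shared in this, over a range of 39.5 to 95.1 in the 4 maxillary and 49.5 to 154 in the 4 mandibular clusters. The lowest in each library was the cluster led by the histone gene Hist1h1b and Top2a, and the highest was the one with Gabrg3 among its first leading genes. The mandibular cluster led by Pcp4 had 1 odontoblast marker and no papilla marker among its 10 leading genes, and the level without it was 97.3. The share of these cells with an Ambn UMI was 38.9% and 54.6%, or 11.4% and 16.9% after thinning, against 0.12% and 0.943% of thinned immune-like and erythroid-like cells. A further pair of clusters, 1 of other mesenchyme-like cells and 1 unnamed, both with alkaline phosphatase (Alpl) among their leading genes, held Ambn at 114 (502 maxillary cells, led by Plac8) and 201 (361 mandibular cells, led by Csmd1). The cluster led by Sfrp2 and Hpse2 (98 mandibular cells) stood at 60.1.

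Nearly all of the maxillary cells of these classes carried a shared barcode: 97.4% of the Bglap-led cells and at least 96.7% of each papilla-like cluster. The 23 papilla-like cells with their own barcode held Ambn at 64.8 CPM, and the 4 Bglap-led ones at 168 (45.7 to 429).

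Ambn was 1 of a large group of genes that were at least 4-fold higher than in immune-like and erythroid-like cells. In Bglap-led cells 27.2% (maxillary) and 24.8% (mandibular) of genes were so, and in papilla-like cells 32.5% and 29.5%. Ambn had at least 10 CPM in the Bglap-led and papilla-like cells but not in the blood cells, as Mmp20 had in the mandibular Bglap-led cells, and no count of members is read against these shares.

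**Figure D4:**
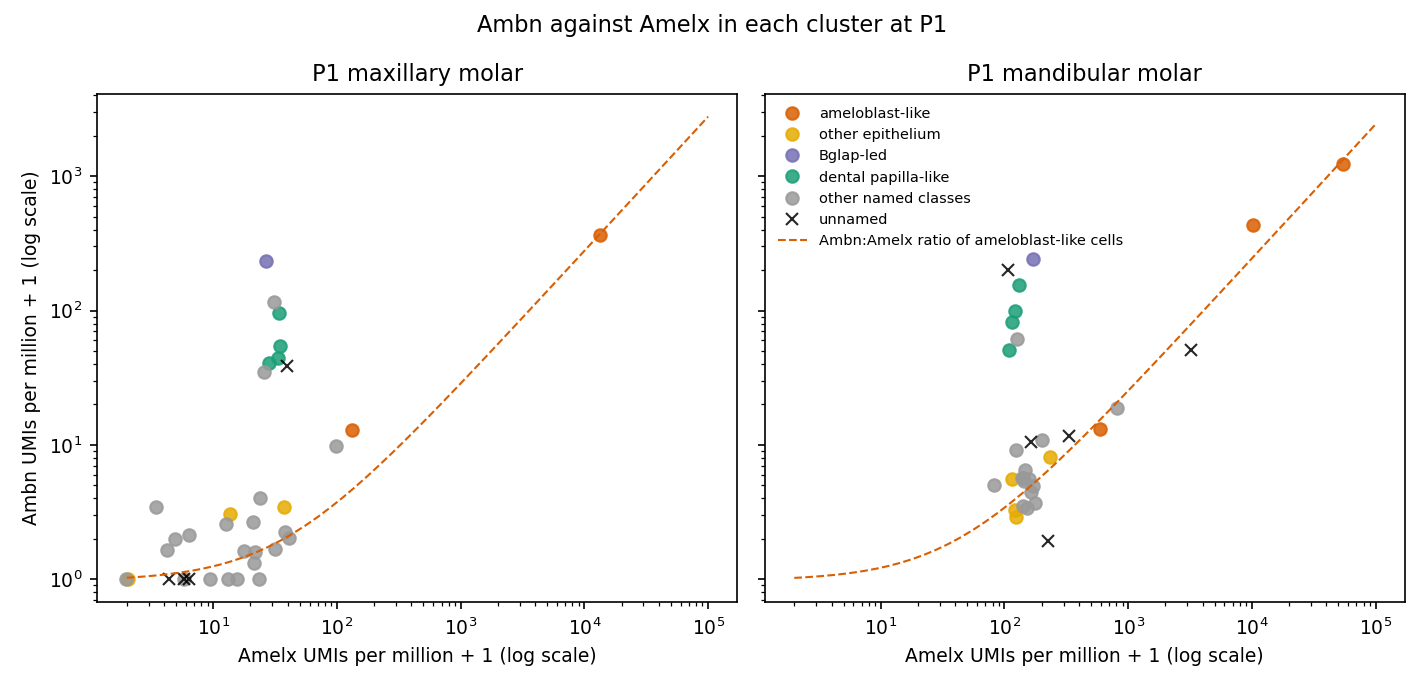
Ambn against Amelx (CPM plus 1, both axes logarithmic) in each cluster of the P1 libraries; points are clusters coloured by class, and the dashed line marks the ratio of the 2 genes in ameloblast-like cells. Bglap-led (233 and 243 for Ambn) and papilla-like clusters stand above the line, at Amelx levels like those of other non-epithelial clusters.

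Mmp20 was also above the background in Bglap-led cells, with different levels in the 2 libraries. It stood at 96.4 CPM (88.8 to 104) in the mandibular Bglap-led cells, against 1.17 in immune-like and erythroid-like cells of that library (log2 6.37, interval 5.24 to 7.82). In the maxillary ones it stood at 7.03 (4.55 to 10.4), from 25 UMIs of which 17 lay in 1 cell, and at 2.26 without that cell. Of mandibular Bglap-led cells 17.2% had an Mmp20 UMI, 7.84% after thinning, and the most loaded cell held 82 of 596 UMIs. Per 100 Amelx UMIs these cells held 57.3 Mmp20 UMIs (51.7 to 63.4), compared with 1.93 in the ameloblast-like cells, and 91.6 (81.7 to 103) without the cell with 406 Amelx UMIs. In papilla-like cells Mmp20 was at 0.244 and 0.584, no higher than in the background cells, so the level in mandibular Bglap-led cells was 165-fold higher than in papilla-like ones (log2 7.37, interval 6.63 to 8.21).

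Odam belonged to the SR/SI-like cells at P1. It stood at 565 CPM (547 to 584) in the maxillary library and 757 (740 to 775) in the mandibular one, and these cells held 96.4% and 94.4% of its UMIs. In ameloblast-like cells it was at 2.48 and at 19.2, the latter being 5.98 without 1 cell that held 168 of 244 UMIs. The immune-like and erythroid-like cells were at 0.595 and 2.72 CPM, so the log2 ratios of SR/SI-like cells to them were 9.89 (8.34 to 12.17) and 8.12 (7.37 to 8.99). Of all genes, 31.5% and 28.1% were at least 4-fold higher there.

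Even within SR/SI-like cells, Odam was unevenly spread. The mandibular cluster led by Mindy4 (300 cells) held it at 1281 and the one led by Krt17 (231 cells) at 200.4 CPM. Only 32.0% of maxillary and 36.5% of mandibular SR/SI-like cells had an Odam UMI (22.3% and 24.1% after thinning), and the 19 and 25 most loaded cells held at least as many Odam UMIs as all other cells of their library. In the maxillary library 374 of the 419 SR/SI-like cells had a shared barcode, with Odam at 575. The other 45 held it at 144 (89.1 to 220), or 20.7 without 1 cell, beside 35.6 in ameloblast-like cells with their own barcode.

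**Figure D5:**
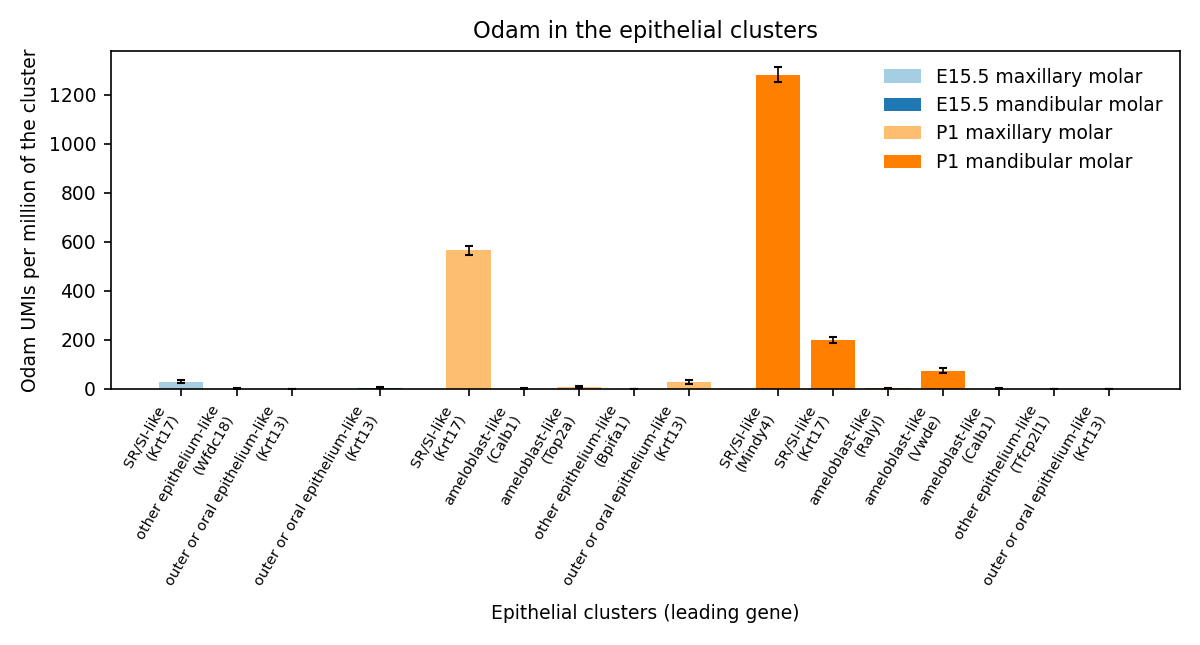
Odam CPM in each epithelial cluster of the 4 libraries, named by class and leading gene; bars start at 0 and the error bars are exact 95% Poisson intervals. The tallest bars are SR/SI-like clusters at P1 (1281, 565 and 200.4), and the E15.5 maxillary SR/SI-like cluster stands at 29.9.

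Klk4 and Amtn, the genes of the maturation stage, were almost undetected. Over all kept cells Klk4 had 10 UMIs in the E15.5 maxillary, 0 in the E15.5 mandibular, 19 in the P1 maxillary and 28 in the P1 mandibular library. In ameloblast-like cells it had 1 and 2 UMIs at P1. The 8 mandibular UMIs in Bglap-led cells (1.29 CPM, 0.558 to 2.55) and the 10 UMIs in E15.5 maxillary outer or oral epithelium-like cells (1.36, 0.654 to 2.51) were among its few sources, with 13 mandibular UMIs in unnamed clusters. Amtn had 0, 3, 8 and 17 UMIs in the same order of libraries, and 11 of the last were in SR/SI-like cells, 6 of them in 1 cell. The count of 0 for both genes in the E15.5 mandibular epithelium is worth up to 1.21 CPM at 3 counts, with an exact 95% upper limit of 1.49.

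At E15.5 the epithelium held hardly any transcript of the secretory genes. The 698 maxillary epithelium-like cells had 3 Amelx, 4 Ambn, 0 Enam and 0 Mmp20 UMIs among 11930724. The 104 mandibular ones were a single cluster led by Krt13 of outer or oral epithelium type, with no cluster named for the tooth's inner layers, and had 604 Amelx, 5 Ambn, 1 Enam and 3 Mmp20 UMIs. All 604 Amelx UMIs lay in 1 cell, and so did the 3 Mmp20 UMIs, the Enam UMI and 3 of the 5 Ambn UMIs. That cell had 12735 UMIs, of which Amelx made up 4.74%, together with 108 UMIs of Calb1 and 14 of Dspp, and its barcode was in neither P1 library. Without it, Amelx was at 0 in E15.5 mandibular epithelium.

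From E15.5 to P1 the maxillary epithelium went from 0.251 to 5034 Amelx CPM, a log2 ratio of 14.29 with a wide counting interval (12.74 to 16.57). The mandibular ratio was 6.07 (5.95 to 6.19) with the single E15.5 cell, and at least 13.72 without it, taking 3 counts for the 0. For Ambn the log2 ratios were 8.71 (7.35 to 10.59) and 7.63 (6.40 to 9.25), the latter 8.94 (7.09 to 11.99) without that cell. Enam was at least 970-fold higher in the maxillary epithelium at P1, and Mmp20 at least 509-fold. In the mandibular epithelium Enam went from 0.404 to 1071 CPM and Mmp20 from 1.21 to 317. Both of these E15.5 values come from the single cell. For Odam the log2 ratios were 4.63 (4.34 to 4.95) and 5.80 (5.05 to 6.67). In the mandibular E15.5 epithelium 10 of the 14 Odam UMIs lay in 1 cell, and the log2 ratio without it was 7.55 (6.19 to 9.42). At least 4-fold higher at P1 were 3.34% of 9909 genes in the maxillary and 3.15% of 10014 in the mandibular comparison. Of the members only Amelx, through the single mandibular cell, had 10 CPM at E15.5, so the others met that minimum through P1 and their number is not read against these shares. With maxillary cells of their own barcode alone the Amelx and Ambn log2 ratios were 8.59 (7.41 without 1 cell) and 4.81. In those P1 cells Enam had 3 UMIs in ameloblast-like and 3 in other epithelium-like cells, Mmp20 4 and 0, and Odam 13 and 21. The maxillary Enam, Mmp20 and Odam values above thus rest almost wholly on shared barcodes. The mandibular ratios compare different epithelia. The 104 cells at E15.5 were all outer or oral epithelium-like, while 963 of the 1579 at P1 were ameloblast-like (a name open at P1 alone) and 531 SR/SI-like. Stage, library and, there, the makeup of the epithelium cannot be told apart.

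Odam and Ambn were already seen in particular classes at E15.5. Odam stood at 29.9 CPM (24.0 to 36.8) in the maxillary SR/SI-like cells, where 14 of 209 cells held its 89 UMIs, against 0.409 in outer or oral epithelium-like cells. Ambn stood in the papilla, at 10.0 (8.27 to 12.01) in the maxillary and 23.6 (18.8 to 29.4) in the mandibular papilla-like cells, against 0 and 0.0685 in immune-like and erythroid-like cells. Within the papilla it was mostly in 1 cluster in each library, both with Plppr1 among the leading genes: 36.1 CPM in the maxillary (259 cells, 94 of 116 UMIs) and 89.1 in the mandibular one (73 cells, all 81 UMIs). Osteoblast-like cells held Ambn at 7.61 (4.92 to 11.2) and 6.78 (4.08 to 10.6). In the papilla-like cells the Ambn level was 6.03-fold higher at P1 in the maxillary and 4.005-fold (log2 2.002, interval 1.68 to 2.34) in the mandibular library. These folds take in the makeup of the class: 202 of the 275 E15.5 mandibular papilla-like cells were in a cluster led by Prr16 with 0 Ambn UMIs, and the E15.5 clusters with Plppr1, at 36.1 and 89.1 CPM, lay nearer to the P1 papilla levels of 60.3 and 94.6. Among genes in general, 37.1% (maxillary) and 73% (mandibular) were at least 4-fold higher in E15.5 papilla-like than in immune-like and erythroid-like cells.

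Scattered Amelx UMIs at E15.5 lay outside the epithelium. In the maxillary library 145 of 8395 cells had 1 or 2 of them, with a level of 3.45 CPM (2.47 to 4.70) in papilla-like and 2.33 (1.87 to 2.87) in other mesenchyme-like cells, and 0.0894 in immune-like and erythroid-like cells. Over clusters of at least 50 cells these low levels went with those of Arhgap6, the gene that encloses Amelx on the opposite strand. Pearson's r of log2(CPM + 1) was 0.88 over 28 maxillary clusters and 0.77 over 24 mandibular ones, the latter without the cluster that holds the single high cell. The clusters of a library share its depth and its free RNA, and the Amelx values are small: the highest were 4.62 and 6.59 CPM, from 16 UMIs each, in clusters with Arhgap6 at 262 and 308. At P1 Arhgap6 was at 32.2 and 70.2 in ameloblast-like cells and at 8.72 and 4.42 in the other epithelium-like cells, a log2 ratio of 1.89 and 3.99. Whether the counting used the strand of the reads is not given in the sources used here, and without it reads of the 2 genes cannot be told apart where they overlap.

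Lists of other genes were read in the same comparison of ameloblast-like with other epithelium-like cells at P1. Of 13 genes outside the matrix linked to amelogenesis imperfecta, an inherited enamel defect, 10 were tested in each library. At least 4-fold higher were 3 in the maxillary library and 4 in the mandibular one, and none was 4-fold lower. Over all genes tested 2.83% and 3.7% were at least 4-fold higher. The list's median log2 ratio was 0.31 and 1.41, beside -0.05 and -0.12 over all genes tested. The 3 in both were Fam20a, a partner of the kinase encoded by Fam20c, at log2 3.60 and 4.42, Fam20c itself at 2.21 and 2.59, and the acid phosphatase gene Acp4 at 2.90 and 3.44. Of the classes compared, these 3 reached 10 CPM in the ameloblast-like class alone, so the list's count is not read against the shares over all genes. Bglap-led cells held more Fam20a (304 and 278 CPM) than ameloblast-like cells (34.8 and 61.2). The same held for Fam20c (83.8 and 77.3 against 36.3 and 57.0) but not for Acp4 (0 and 0.970 against 27.3 and 87.7). Lamb3, a chain of the laminin that anchors epithelium, reached a log2 ratio of 1.65 and 2.24. Wdr72, a gene of the maturation stage, was at -0.68 and -1.08.

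Of 13 transcription regulators of ameloblasts, 12 were tested, and 3 in the maxillary library and 2 in the mandibular one were at least 4-fold higher, beside the same 2.83% and 3.7% of all genes. Satb1, a chromatin organizer, was at log2 3.26 and 3.24. Sp6, at 3.59 and 2.91, and Dlx3, at 2.05 and 1.65, are also among the markers that named the class. For that reason this list's count is not read against those shares either. The list's median was -0.54 and -0.84, and Runx2 (-2.64 and -1.93) was lower in ameloblast-like cells by at least 4-fold in the maxillary library. Of 8 listed neighbours of the chromosome 5 members 7 were in the tables, only Utp3 and Rufy3 were tested, and their log2 ratios lay between -0.41 and 0.05. The milk protein gene Csn3 stood at 0.108 and 0.0785 CPM in ameloblast-like cells, at 4.89 and 9.59 in SR/SI-like cells, and at 0 in immune-like and erythroid-like cells. Of the 5 dentin and bone matrix genes 2 were tested: Dspp was at 679 and 1297 CPM in ameloblast-like cells, while Ibsp, the bone sialoprotein gene, was lower there than in other epithelium-like cells (-3.95 and -3.76).

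Genes most like Amelx and Ambn were ranked by Pearson's r with the mean of the 2, over the 34 maxillary and 30 mandibular clusters of at least 50 cells, taking the lower of the r values, among 7919 genes. Outside the members the first was Gm40193, a short predicted coding gene at chr11:70532232-70532939, with r of 0.86 and 0.83, followed by Dspp (0.79 and 0.81), Sp6 (0.84 and 0.75), the sialyltransferase gene St8sia1 (0.74 and 0.84) and the Wnt ligand gene Wnt10a (0.73 and 0.74). Gm13010, Wnt6, Vwde, Satb1 and Dlx3 completed the 10, of which Gm13010 is annotated as antisense and is uncertain for the same reason. Gm40193 stood at 261 and 419 CPM in ameloblast-like and at 349 and 431 in Bglap-led cells, but at 3.75 and 7.91 in SR/SI-like cells. St8sia1 stood at 205 and 292 in ameloblast-like and at 39.9 and 48.8 in Bglap-led cells. Among the members, Mmp20 had 0.74 and 0.84, Enam 0.70 and 0.86, and Odam 0.14 and -0.04. The clusters of a library share its free RNA and the 2 libraries share barcodes, so these r values are descriptive.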

How the data were processed

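The authors deposited, for each of the 4 libraries, whole-number UMI counts per gene and barcode from Cell Ranger 7.0.1 with mm10 (per the labels). Members and gene lists were chosen with earlier results of these data known. Barcodes with under 1000 UMIs, those whose mitochondrial share exceeded the median by more than 3 median absolute deviations, and the top Scrublet scores (0.8% per 1000 barcodes) were removed. Scrublet's own threshold marked at most 302 barcodes in a library. Each library was clustered alone without the members, mitochondrial and ribosomal protein genes (10000 counts per cell, 2000 variable genes, 40 components, 15 neighbours, Leiden resolution 1.0; scanpy 1.11.5, leidenalg 0.10.2). Clusters took the class with the highest mean marker position (at least 0.6, 3 or more detected markers). Sub-classes needed 0.65, and those of ameloblasts and odontoblasts were open to P1 clusters alone. Both limits were chosen with the clusters in view, as were the Amelx ranges and the promoter motif. Unnamed clusters held 5.71%, 8.43%, 6.15% and 14.5% of cells, in the order E15.5 maxillary, E15.5 mandibular, P1 maxillary and P1 mandibular. Levels carry exact 95% Poisson intervals, ratios exact binomial ones and shares Clopper-Pearson ones, all for counting error only, and zeros take 3 counts. Fold calls needed 10 CPM in the higher class and a 4-fold ratio. Named genes were the 7 members, the listed genes, and the 10 most like (50 CPM in a cluster of each P1 library). Scripts were tested on simulated data. No test across libraries was made, and 0 other columns of per-sample values were present. Promoter sequences are from RefSeq, and all 7 members matched. Proteins were not used here. The values of 1 listed gene are not reported here.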

Additional observations from a re-analysis of the deposited data

Results flagged for a closer look

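Amelx was also measured, in CPM, in barcodes outside the comparisons, where it lay above the level of blood cells. In P1 barcodes under 1000 UMIs it stood at 475 CPM (maxillary, 1667 barcodes) and 1744 (mandibular, 2150 barcodes, shared ones left out), above the 19.4 and 169 of immune-like and erythroid-like cells; at E15.5 such barcodes had 0 and 1 Amelx UMIs. These barcodes can hold remains of any cell type, and their makeup was not tested. The P1 mandibular barcodes that were dropped because they are also in the P1 maxillary library held Amelx at 1230 CPM, from 28616 UMIs, and the same barcodes in the maxillary library held it at 1194, from 115177 UMIs, a log2 ratio of UMIs of 2.01. Groups of 4 or more samples do not occur in this design, so no library was compared with others of its group.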

How the results depend on the processing

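The direction of Odam was reversed: the maxillary log2 ratio of Odam between ameloblast-like and other epithelium-like cells (-7.29) was 1.4834 without shared barcodes, and against SR/SI-like cells alone (-7.83) it was -2.02, or 0.778 without 1 cell. Of the values of the 8 main results under 20 alternatives, 45 moved by less than the counting interval and 34 by more, and of those for single genes and list shares 48 and 96 did. The cause of a move was not tested unless the alternative's construction shows it. Leaving out shared barcodes, leaving out single cells or 1 cluster and the other sources of free RNA were alternatives chosen after seeing the data. For the maxillary Amelx level in ameloblast-like cells (9926 CPM) the values were 10188 with a minimum of 2000 UMIs, 10299 with a filter on detected genes, 8618 with cells named one by one, 13655 over a total without members, mitochondrial and ribosomal protein genes, 7622 as a mean over cells, 9158 thinned and 509 without shared barcodes. The mandibular level (30278) was 31229.8 with doublets kept, 33664 with the higher minimum, 33250.4 with the gene filter, 30178 with shared barcodes kept, 31142 at resolution 2.0, 23351 with cells named one by one, 41453 over the reduced total, 28169.9 as a mean and 29279 thinned. Free-RNA Amelx in the maxillary library (19.4) was 250.4 with doublets kept, 13.2 thinned, 8.26 without shared barcodes and 475 in barcodes under 1000 UMIs. In the mandibular library (169) it was 236 with doublets kept, 4883 with cells named one by one, 189.96 over the reduced total, 208 as a mean, 123 in endothelial-like cells and 1744 in barcodes under 1000 UMIs. The maxillary log2 ratio of P1 to E15.5 epithelium was 10.96 for Amelx when thinned (14.29 as reported), 8.59 without shared barcodes, and 4.81 for Ambn without them. The mandibular ratio for Amelx (6.07) was 5.62 with cells named one by one, 5.24 as a mean, 5.17 thinned and at least 13.72 without the single E15.5 cell, and for Ambn (7.63) at least 4.79 thinned. Of the 10 most similar genes, 7 were also in the first 10 at a minimum of 10 CPM. Stages paired by jaw were not tested: each stage and jaw has 1 library, and the P1 libraries share barcodes. Values of the members in maxillary ameloblast-like cells with their own barcode rest on at most 186 UMIs, and the 2 Klk4 UMIs of mandibular ameloblast-like cells allow up to 0.567 CPM.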

Other observations

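A P1 mandibular cluster left without a name, because its cells had a median of 1616 UMIs (394 cells, led by the haemoglobin genes Hba-a1 and Hba-a2), held Amelx at 3207 CPM, or 2450 without the cell that held 584 of the 2451 UMIs. Its Ambn level was 49.7, its Enam level 85 and its Odam level 73.3 CPM, against 2.72 for Odam in immune-like and erythroid-like cells. Single cells with many Amelx UMIs also occurred in classes with little of it: 1 mandibular Bglap-led cell held 406 of 1040 UMIs, and the class level without it was 103 CPM. In the mandibular outer or oral epithelium-like cells 1 cell held 95 of 198 UMIs, and the level without it was 124. In the maxillary outer or oral epithelium-like cells 1 cell held 49 of 54 Odam UMIs, and the Odam level without it was 2.60.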
